A study of Mus musculus with 7 samples.

Results

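The perilipins are the proteins that coat lipid droplets, and the mouse has 5 perilipin genes, Plin1 to Plin5. Their probes were found through the RefSeq accession that the scanner files give for each spot. Each gene had 1 probe, so 5 of 39429 probes were perilipin probes. Plin4 (NM_020568) was the 1 perilipin probe among the 1615 probes of the deposited table of processed values. The diet comparison therefore covers Plin4, while Plin1 (NM_175640), Plin2 (NM_007408), Plin3 (NM_025836) and Plin5 (NM_001077348) are described by their levels on the high-fat diet arrays.

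The samples were livers of male mice, labelled as strain C57/BJ, aged 26 weeks. The 3 HFD mice were fed a high-fat diet (D12331) and the 4 chow mice a control chow for 20 weeks from 6 weeks of age, after random assignment. Total RNA was labelled with Cy3 and hybridised to 1-colour Agilent arrays, 1 array per sample. The labels do not name the animal behind a sample, so p-values measure the spread between these samples, and precision is limited by how few arrays there are.

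A lipid droplet is a core of triglyceride and sterol esters under a single layer of phospholipid, and perilipins bind that surface. They govern how easily lipases reach the fat inside. Plin1 is the perilipin of fat cells. It holds the lipase activator Abhd5 until it is phosphorylated by protein kinase A. Plin2 is found on droplets of most tissues, is the main perilipin of steatotic hepatocytes, and is degraded when it is not bound to lipid. Plin3 is widely expressed and moves between cytosol and young droplets. Plin4 carries a long run of amphipathic repeats that covers bare lipid surface, and is best known from fat and muscle. Plin5 is typical of tissues that oxidise fat and tethers droplets to mitochondria. Several perilipin genes are known targets of the nuclear receptors PPAR gamma and PPAR alpha.

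The 3 HFD scanner files followed their own columns of the table across its probes (Pearson's r of at least 0.9999 across probes, which are not independent replicates). The 4 scanner files labelled chow did not follow theirs, with r between 0.580 and 0.589. In those 4 files 3 of 9 measured hepatocyte genes were above background on no array, albumin (Alb) and Apoa1 among them, whereas all 9 were well above background on all 3 HFD arrays. Comparisons therefore use the chow columns of the table, and levels of perilipins outside it are given for HFD alone. The table had been chosen on diet, since HFD and chow values were fully separated at each of its 1615 probes (100% of them). A p-value from it is thus no independent evidence, and a gene that it does not list cannot be called unchanged. All HFD arrays share 1 scan day, and that of the chow columns is not known, so scan day and diet cannot be told apart. HFD replicate 1 had negative control spots at a mean signal of 46.9, against 29.9 and 30.8 on the other HFD arrays.

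The promoters of the perilipins the results turn on are shown first, as RefSeq gives them on GRCm38.p6, from 250 bases before to 50 bases after the start of transcription. Plin4 is the member with a diet comparison, Plin5 is the next gene on chromosome 17, and Plin2 is the main perilipin of hepatocytes. All 3 lie on the minus strand and are printed 5′ to 3′. Capitals mark AGGTCA, the hexamer that PPARs and related nuclear receptors recognise, and CCAAT, on either strand (TGACCT and ATTGG on the reverse).
Plin4, chr17:56109733-56110032: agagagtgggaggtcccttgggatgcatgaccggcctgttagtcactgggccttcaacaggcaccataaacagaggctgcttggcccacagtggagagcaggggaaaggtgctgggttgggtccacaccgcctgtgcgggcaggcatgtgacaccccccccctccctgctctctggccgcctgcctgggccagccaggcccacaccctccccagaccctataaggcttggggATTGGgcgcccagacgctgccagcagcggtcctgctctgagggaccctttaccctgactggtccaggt
Plin5, chr17:56117499-56117798: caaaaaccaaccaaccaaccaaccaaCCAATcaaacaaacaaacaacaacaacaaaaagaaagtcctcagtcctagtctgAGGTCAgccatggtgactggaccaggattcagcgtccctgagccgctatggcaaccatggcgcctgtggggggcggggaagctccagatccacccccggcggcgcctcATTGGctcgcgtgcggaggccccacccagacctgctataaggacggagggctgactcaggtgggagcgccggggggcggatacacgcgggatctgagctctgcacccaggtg
Plin2, chr4:86670010-86670309: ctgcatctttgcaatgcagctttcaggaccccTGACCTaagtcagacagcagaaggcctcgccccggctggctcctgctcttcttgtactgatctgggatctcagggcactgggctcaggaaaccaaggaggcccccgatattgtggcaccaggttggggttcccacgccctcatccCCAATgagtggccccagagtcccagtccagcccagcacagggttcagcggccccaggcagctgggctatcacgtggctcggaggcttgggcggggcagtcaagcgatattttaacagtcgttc
The Plin4 window held no AGGTCA, and its CCAAT lay on the reverse strand with its first base at -18 from the start. The Plin5 window, the more upstream of the start sites listed for this gene, held AGGTCA at -170, and the Plin2 window held it on the reverse strand at -218. Of the 6 perilipin promoters listed, 3 held AGGTCA, both Plin5 windows among them, as did 16.3% of all 32851 promoters of that length, and 4 held CCAAT, as did 37.4% of all. The direct repeat AGGTCANAGGTCA was in 0 of the 6 and in 0.0396% of all. Both strands were searched. These are matches of letters and say nothing of binding.

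The question put to the table was whether liver transcripts differed between HFD and chow. Plin4 was higher in HFD. Its log2 values were 13.90, 13.74 and 13.02 in HFD replicates 1, 2 and 3, against 10.15, 10.71, 10.95 and 10.92 in chow replicates 1 to 4. The lowest HFD value lay above the highest chow value by more than the range within either group. HFD replicate 3 was the lowest of the HFD samples, and chow replicate 1 the lowest of the chow samples. Plin4 averaged 13.55 ± 0.47 (SD, n = 3) in HFD and 10.68 ± 0.37 (SD, n = 4) in chow. This was a 7.31-fold difference with a 95% interval of 4.66 to 11.5. The interval makes no allowance for a table chosen on diet, or for a chow scale that could not be checked. The log2 fold change of Plin4 was 2.87 (SE 0.28). Plin4 passed in the limma linear model (adjusted p = 0.0205, Benjamini-Hochberg over all 32451 genes on the array). In that model 318 genes, 0.980% of all genes on the array and 21.4% of the 1488 genes in the table, passed as higher in HFD, and 260, or 0.801% of all, as lower. At an unadjusted p under 0.05 the columns centred on their medians held 733 higher and 687 lower genes in limma. Among genes that passed, the split turned round there, to 186 higher and 608 lower. Both counts were 0 when chow replicate 1 or HFD replicate 1 was left out (801 and 687 at an unadjusted p under 0.05), at most 7 without chow replicate 3, chow replicate 4 or HFD replicate 2, and 48 and 51 without chow replicate 2. The exact permutation test over the 7 samples (two-sided) gave p = 0.0286, the smallest it can give with 3 against 4 samples. Since the groups do not overlap at any of the 1615 table probes, a p at or near that limit was set by the selection. It is no support for Plin4.

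**Figure D1:**
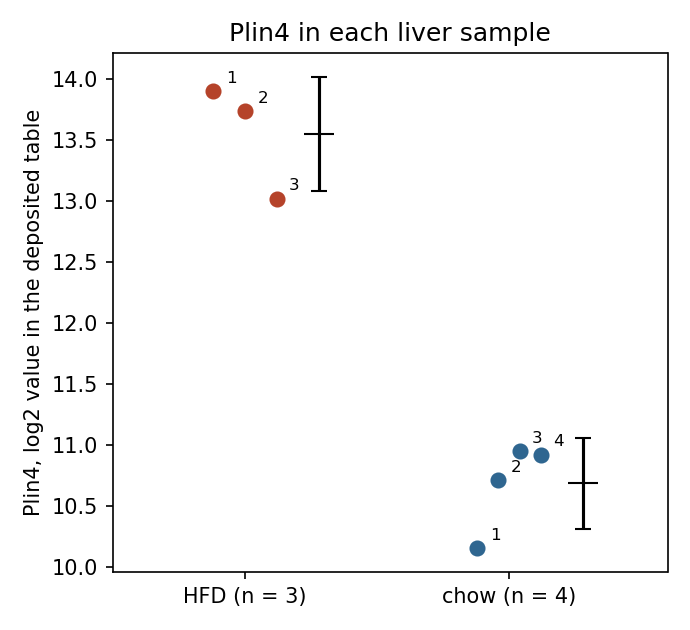
The log2 value of Plin4 in the deposited table (vertical axis) for each HFD and chow sample, numbered by replicate, with the mean and SD of each group as a bar beside the points. The 3 HFD samples lie between 13.02 and 13.90, all above the 4 chow samples at 10.15 to 10.95.

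The size of the Plin4 difference held when single samples were left out, with log2 fold changes between 2.69 and 3.14. The call did not hold in 5 of those 7 fits. Adjusted p in limma was 0.0425 when chow replicate 2 was left out and 0.0149 when HFD replicate 3 was. It was 0.0571, 0.0677 and 0.0630 for chow replicates 1, 3 and 4, each left out in turn. Leaving out HFD replicate 1 gave 0.0854, and leaving out HFD replicate 2 gave 0.0911.

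On the HFD scanner files the probe of Plin4 gave processed signals of 16144, 12036 and 8374 intensity units in HFD replicates 1, 2 and 3. Relative to each array's 75th percentile, these were log2 levels of 4.15, 4.08 and 3.43. Replicates 1 and 2 lay close together and replicate 3 was lower, the order that the table gives. The SD of Plin4 over the 3 arrays was 0.40, larger than that of 85.2% of the 21651 probes that were well above background on all 3 HFD arrays, whose median SD was 0.17.

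Plin2, the main droplet coat of hepatocytes, was well above background on all 3 HFD arrays, with signals of 161376, 100049 and 132473 intensity units in HFD replicates 1, 2 and 3. Its scaled log2 levels were 7.47, 7.14 and 7.41, a mean of 7.34 ± 0.18 (SD, n = 3). The order of the arrays differed from that of Plin4, since replicate 2 was the lowest for Plin2 and replicate 3 was not. Its SD was close to the median of all detected probes, with 50.4% of them below it.

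Plin3, the mobile perilipin of cytosol and young droplets, had signals of 16428, 12857 and 12349 intensity units in HFD replicates 1, 2 and 3. Scaled to each array, the log2 levels were 4.17, 4.18 and 3.99, a mean of 4.11 ± 0.11 (SD, n = 3). The highest and lowest scaled levels of Plin3 differed by 1.14-fold, the smallest spread among the 5 perilipin probes on these arrays.

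Plin5, which joins droplets to mitochondria, had signals of 17755, 15786 and 14823 intensity units in HFD replicates 1, 2 and 3. The scaled log2 levels were 4.28, 4.47 and 4.25, with a mean of 4.34 ± 0.12 (SD, n = 3). Replicate 2 was the highest for Plin5 and the lowest for Plin2. The scaled levels thus ranked the arrays differently for Plin2, Plin4 and Plin5, whereas the unscaled signals of Plin3, Plin4 and Plin5 ranked them alike. The largest spread among the 4 perilipins detected on all HFD arrays was the 1.65-fold of Plin4, in scaled levels.

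Plin1, the perilipin of fat cells, was well above background on 1 of the 3 HFD arrays. Its signals were 42.4, 12.2 and 13.3 intensity units in HFD replicates 1, 2 and 3, so it was read above background in replicate 1 alone, the array with the raised negative controls. Without that replicate, Plin1 was not well above background on any HFD array. The lowest signal called well above background on that array was 34.8 intensity units, close to the Plin1 reading. The local background at the Plin1 spot was 24, 30 and 39 in HFD replicates 1, 2 and 3. The part of the raised negative controls in this reading was not tested.

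**Figure D2:**
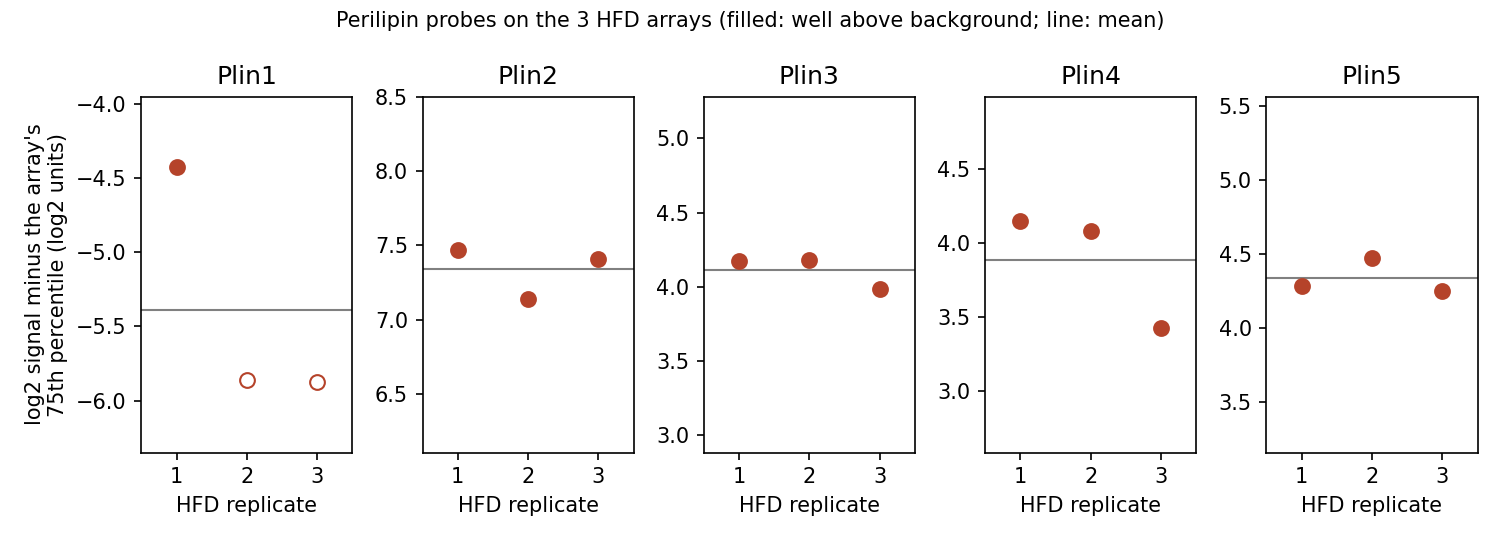
Scaled level of each perilipin probe (vertical axis, log2 signal minus the array's 75th percentile) on the arrays of HFD replicates 1, 2 and 3, with filled points where the spot was well above background and a line at the mean. Each panel spans the same number of log2 units around its own values, since levels of different probes cannot be set against each other, and the spread can be read across panels: Plin3 varied by 1.14-fold, Plin4 by 1.65-fold, and Plin1 was filled in replicate 1 alone.

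Plin1 and Plin4 are abundant in fat cells, so fat cell markers were read beside them. None of the 7 measured fat cell markers was in the table. On the HFD arrays 4 of the 7 were well above background on all 3 arrays. The defining hormone genes Adipoq and Lep, which encode adiponectin and leptin, were above background on none of them. The 4 detected markers did not share 1 order of the arrays, in unscaled signals. Cfd, adipsin, had 733, 6868 and 4645 intensity units in HFD replicates 1, 2 and 3, lowest in replicate 1 where Plin4 was highest. Fabp4, a fatty acid carrier that macrophages express too, had 4571, 3424 and 2833, and Lipe, hormone-sensitive lipase, had 167, 157 and 140, both in the order of Plin4. Adrb3, a beta adrenergic receptor, had 911, 859 and 891, also highest in replicate 1. HFD replicate 1 was the brightest array as well, with a 75th percentile of 971, against 758 and 838 on replicates 2 and 3. The part of array brightness in these unscaled orders was not tested. The summed signal of the 7 markers was 6438, 11342 and 8555, and without Cfd it was 5704, 4474 and 3910, so Cfd set the order of the sum. The part of fat cells in the Plin4 difference was not tested.

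Lipid-laden macrophages and stellate cells also carry droplets. In bulk liver, fewer cells of a type and less RNA per cell cannot be told apart. Of 9 measured macrophage markers 3 were in the table and passed as higher in HFD. Of all 32451 genes on the array, 1488 were in the table and 0.980% passed as higher. The markers were chosen with earlier results of these data known, so these counts are no test. Gpnmb was at least 5.86-fold higher, a bound used because all 4 chow values lay under the detection floor. Ccr2 rose 5.09-fold, with 1 of 4 chow values under that floor, and Itgam rose 1.75-fold. Their HFD values had the sample order of Plin4, highest in replicate 1 and lowest in replicate 3. Gpnmb, for example, had log2 values of 8.64, 7.84 and 5.95 in HFD replicates 1, 2 and 3. The medians of the HFD columns of the table fell in that order too, at 9.85, 9.78 and 9.68. The summed signal of the 9 macrophage markers did not, with 43939, 15632 and 18503 intensity units in HFD replicates 1, 2 and 3. Of 9 stellate cell markers the table held Col1a2, a collagen gene (log2 fold change 1.46, SE 0.33, adjusted p = 0.0745 in limma), and their summed signals were 28561, 17429 and 11262. The part of these cells in the Plin4 difference was not tested. Of 9 hepatocyte markers 3 were in the table, all with lower values in HFD, and Serpina1a passed (1.43-fold lower). A brighter probe of Serpina1a was not in the table. Of all genes on the array, 0.801% passed as lower.

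The genes working with perilipins that the table listed all had higher means in HFD. Of 58 measured genes of lipid droplets, triglyceride synthesis and PPAR signalling, perilipins left out, 10 were in the table and 9 passed as higher, 15.5% of the measured genes beside the 0.980% of all genes on the array, and 0 passed as lower. The lists were drawn up with earlier results of these data known, so the 2 shares describe them and are no test. In limma all 10 had an unadjusted p under 0.05, which held for every gene in the table. Leaving out chow replicate 1, or HFD replicate 1, brought the count of 9 to 0, with 10 still at an unadjusted p under 0.05 in either fit. It was 1 without chow replicate 3, chow replicate 4 or HFD replicate 2, and 5 without chow replicate 2 or HFD replicate 3.

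Among other droplet proteins, 3 of 16 measured genes were listed and 2 passed. The median log2 fold change of the 3 listed genes, all higher in HFD, was 3.45. That of all table genes was 0.44, but it spans 801 higher and 687 lower genes, so the 2 medians cover unlike sets. Cidea and Cidec belong to the CIDE family, which transfers lipid from small droplets to large ones, a process in which Plin1 takes part in fat cells. Cidec averaged 14.53 ± 0.38 (SD, n = 3) in HFD and 11.08 ± 0.79 (SD, n = 4) in chow (log2 fold change 3.45, SE 0.43). Cidea averaged 15.21 ± 0.23 (SD, n = 3) in HFD and 9.29 ± 1.53 (SD, n = 4) in chow (log2 fold change 5.92, SE 0.77), with the wider spread in chow. Cideb, the CIDE member of normal hepatocytes, did not pass (log2 fold change 0.42, SE 0.09, limma adjusted p = 0.0684).

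Among the partners that act on the fat beneath the coat, 2 of 10 measured genes were listed and both passed. Pnpla3, a patatin-like lipid hydrolase on hepatocyte droplets, had log2 values of 7.28, 6.42 and 6.48 in HFD replicates 1, 2 and 3, against 4.61, 4.43, 5.57 and 4.17 in chow replicates 1 to 4. Since 3 of the 4 chow values, replicate 3 excepted, lay under the detection floor of 4.93, the size of its difference is uncertain. Pnpla5, of the same family, was at least 3.09-fold higher, with all 4 chow values under the floor. All 10 partners were well above background on all 3 HFD arrays.

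Of 10 triglyceride synthesis genes the table listed Mogat1, monoacylglycerol acyltransferase, which rose 6.84-fold to 9.82 ± 0.17 (SD, n = 3) in HFD, against 7.04 ± 0.75 (SD, n = 4) in chow. Of 6 PPAR receptor and cofactor genes it listed Pparg, the gene of PPAR gamma, which rose 2.47-fold. Pparg averaged 11.95 ± 0.08 (SD, n = 3) in HFD and 10.65 ± 0.16 (SD, n = 4) in chow (adjusted p = 0.0185 in limma). Of 16 PPAR target genes other than perilipins 3 were listed and passed. Vldlr, a lipoprotein receptor, rose 10.3-fold, Cd36, a fatty acid transporter, 5.60-fold, and Vnn1, pantetheinase, 3.64-fold.

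**Figure D3:**
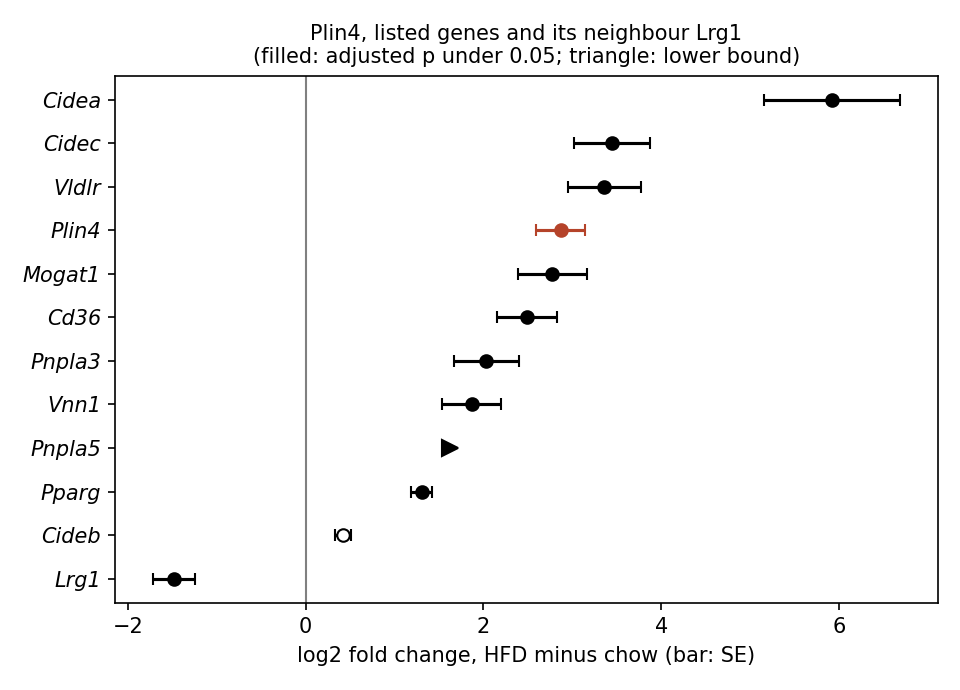
Log2 fold change of HFD minus chow (horizontal axis) with its SE for Plin4, for the 10 listed genes of lipid droplets, triglyceride synthesis and PPAR signalling, and for Lrg1, a neighbour of Plin4 on the chromosome. Filled points passed, the open point (Cideb) did not, and the triangle is a lower bound. The size for Pnpla3 is uncertain, with 3 of 4 chow values under the detection floor. Plin4 lies at 2.87, between Vldlr at 3.36 and Mogat1 at 2.77, and Lrg1 lies at -1.48.

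The table genes with the sample pattern most like that of Plin4 were found among 1166 other named genes, by the root mean square difference of gene-centred log2 values over the 7 samples. The 5 nearest were H2-Q1 (0.33), Kbtbd11 (0.37), Themis (0.39), Vldlr (0.40) and Rufy4 (0.41), where the median gene lay at 1.25. H2-Q1 is one of a family of similar MHC class I genes, so its probe may also read its relatives. Themis is known from developing T cells. Since they were chosen for their likeness over these same samples, what follows describes them and is no test. Each of the 5 passed as higher in HFD, with log2 fold changes of 2.16 (Rufy4) to 3.36 (Vldlr). In each of them, as in Plin4, HFD replicate 3 was the lowest HFD sample. In chow the lowest sample was replicate 1 for Plin4, Vldlr and Rufy4, but replicate 4 for Kbtbd11 and replicate 3 for Themis, while replicates 1 and 2 were level for H2-Q1.

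**Figure D4:**
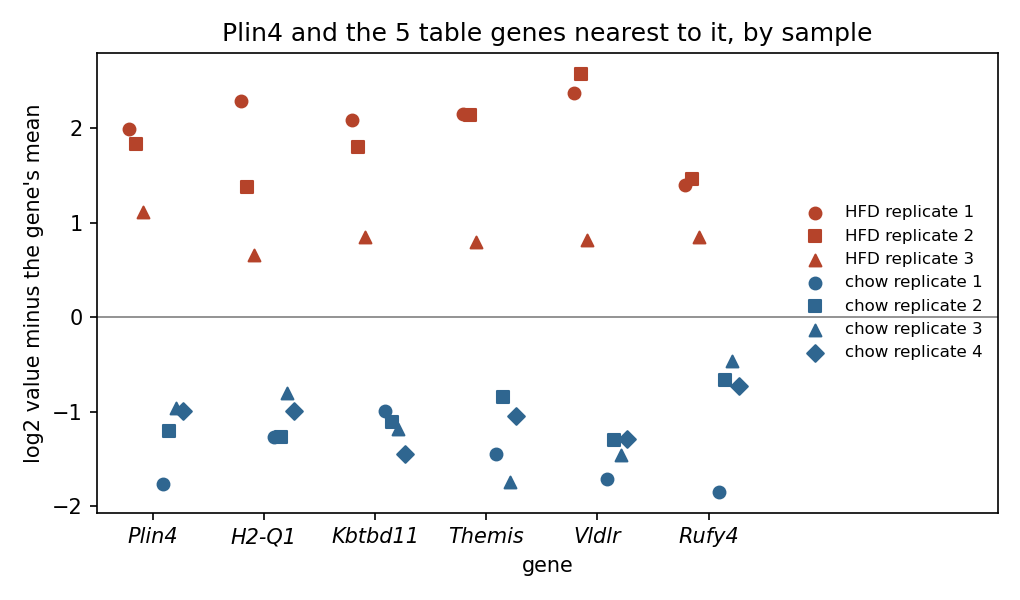
Gene-centred log2 values (vertical axis) of Plin4 and its 5 nearest table genes in the 3 HFD and 4 chow samples, with a marker shape for each replicate. HFD replicate 3, the triangle, is the lowest HFD point of every gene, at 1.11 for Plin4 and 0.66 for H2-Q1.

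Plin3, Plin4 and Plin5 lie on chromosome 17, and Plin5 is the protein-coding gene next to Plin4 in the RefSeq gene table. Beyond Plin5 lies Lrg1, which encodes a secreted acute phase glycoprotein. Lrg1 was lower in HFD. Its log2 values were 16.21, 16.07 and 16.66 in HFD replicates 1, 2 and 3, against 18.19, 17.40, 17.57 and 18.03 in chow replicates 1 to 4. It averaged 16.31 ± 0.31 (SD, n = 3) in HFD and 17.80 ± 0.37 (SD, n = 4) in chow, 2.80-fold lower in HFD (log2 fold change -1.48, SE 0.24, limma adjusted p = 0.0387). Plin4 and Lrg1 thus differed in opposite directions, with Plin5 between them not in the table. Of the 16 other protein-coding neighbours of the 5 perilipin genes, 2 on each side, the table held Lrg1 and Rps6, the gene of a ribosomal protein near Plin2. It held 1488 of all 32451 genes on the array, and 0.801% of all passed as lower. Rps6 did not pass (log2 fold change -0.54, SE 0.11, limma adjusted p = 0.0553).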

How the data were processed

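Per the file headers, the deposited scanner files hold spot intensity from Agilent Feature Extraction 10.7.3.1 (9.1 per the submitters' processing notes), background-subtracted in the processed signal. Log2 values of 1615 probes were deposited too, in a table whose normalization and selection no label or header states. The HFD columns rise with the scanner signal, so their direction is settled, and table column medians lie between 9.55 and 9.85. The scale of its chow columns could not be set against matching scanner files.

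Probes were named through unversioned RefSeq accessions (27234 of 39429 matched, with symbols from GRCm38.p6). Control spots and outlier-flagged spots were left out, spots of a probe were averaged, and no spot was saturated. For a gene with several probes in a fit, the one with the highest mean was used. Fits on the table saw only its own probes. Summed marker signals take each gene's brightest probe on each array. Between 57.0% and 66.8% of spots per array were well above background. The detection floor is the lowest table value of a probe well above background, taken for chow from the highest of the HFD floors (4.93).

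The comparison used limma 3.58.1 in R 4.3.3. The variance prior (0.0364 on 2.12 degrees of freedom) came from 18052 genes outside the table, each well above background on 2 or more HFD arrays. Genes outside the table had p set to 1, so adjustment covered 32451 genes, and the threshold was 0.05. The fit was tested on simulated data. Scaled levels are log2 processed signals minus the array's 75th percentile. The members, lists and tests were chosen with earlier results of these data known. Named were all perilipin probes, up to 6 listed genes per list in the table, the 5 table genes nearest to Plin4 and 2 neighbours on each side. Cd68 and Tf had no named probe. Marker genes outside the table were picked after their values were seen.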

Additional observations from a re-analysis of the deposited data

Results flagged for a closer look

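Apart from an alternative fit given below, which is no check of diet, the scanner files labelled chow are used in no diet comparison. The reason is that they did not follow the chow columns of the table. They nevertheless held signal well above background on all 4 arrays for 4 perilipin probes. The mean log2 signal minus the array's 75th percentile was 4.76 ± 0.06 for Plin2, 4.18 ± 0.04 for Plin3, -1.53 ± 0.15 for Plin4 and -2.66 ± 0.07 for Plin5 (SD over the 4 files). Processed signals ran from 38109 to 50880 intensity units for Plin2, from 27668 to 33298 for Plin3, from 508 to 624 for Plin4 and from 229 to 298 for Plin5. Plin1 was well above background on none of the 4 files. What tissue these files measured was not tested, and a difference between them and the HFD files is not read as one of diet.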

How the results depend on the processing

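The log2 fold change of Plin4 stayed positive under all 15 alternatives on the table and passed in 9. These are not independent checks, since the table's groups do not overlap at any probe. The permutation p is not adjusted over genes, and every table gene passed when adjustment covered the table alone. Averaging probes, fitting each probe, or raising values to the floor left the Plin4 log2 fold change and SE as they were. Plin4 has 1 probe and all its table values lie above the detection floor, so these settings could not change its values. Their passes are counted among the 9 but are no check of the size of its difference. The log2 fold change of Plin4 was 2.66 with columns centred on their medians. The scanner files labelled HFD and chow gave 5.41 (adjusted p = 4.07e-07). As the chow files do not match the table, that value and the counts from these files below are no check of the diet difference. Without 1 sample it ran from 2.69 to 3.14. With the replicate block it was 2.95 and did not pass (adjusted p = 0.225), in a fit with fewer degrees of freedom. Deviations of same-numbered samples correlated at -0.10, 0.13 and 0.0064, and those of other pairs ran from -0.15 to 0.14. These probes were chosen on diet and the samples are few, so the correlations cannot settle whether same-numbered samples were paired. Genes higher and lower numbered 318 and 260, but 552 and 474 with the table's own prior, 801 and 687 adjusted over the table alone, 186 and 608 with centred columns, 0 and 0 in limma with the replicate block (801 and 687 at unadjusted p under 0.05), and 8370 and 8398 from the scanner files. Without 1 sample they ran from 0 to 240 and from 0 to 206, in fits with fewer samples. The 9 list genes passing as higher were 0 with the block (10 at unadjusted p), 47 from the scanner files, and 0 to 5 without 1 sample. Beyond the fewer samples and degrees of freedom named, the cause was not tested. HFD scanner levels depend on scaling. Quantile normalization moved each of them by less than its SD. It gave -5.39 for Plin1, 7.35 for Plin2, 4.12 for Plin3, 3.89 for Plin4 and 4.34 for Plin5. The percentile over probes detected on all HFD arrays shifted every probe by the same amount. With it the levels were -7.30 for Plin1, 5.43 for Plin2, 2.20 for Plin3, 1.97 for Plin4 and 2.42 for Plin5. Normexp was run on the median signals (offset 50), since no mean signal column was present. There the levels were -3.08 for Plin1, 7.05 for Plin2, 3.95 for Plin3, 3.75 for Plin4 and 3.94 for Plin5.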
